A study of Rattus norvegicus with 12 samples.

Results

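Eif4b, Pop7 and Med16, 3 genes of the gene expression machinery, were followed across samples of rat synovium, the lining of the joint cavity. They were chosen by name, through the catalogue probe that each has on the array, and they make up 3 of the 29 catalogue probes that carry a gene symbol here. Each probe is printed as 10 spots per array, and all 3 passed the filter on dim probes, which required 4 of the 12 arrays to show a signal well above background. The groups, with 4 male rats each, were healthy animals (Control), animals in which immunisation with collagen raises an arthritis that models rheumatoid arthritis (collagen-induced arthritis, CIA) and rats of a group labelled BZXD, which stands for Bi Zhong Xiao Decoction, a herbal mixture given to arthritic rats. The sources used here do not give strain, age, dose or time of treatment. RNA was hybridised in 1 colour (Cy3) after removal of ribosomal RNA and random-primed labelling along whole transcripts.

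Making a protein depends on steps at which these genes act. Mediator is a large complex that carries signals from transcription factors at enhancers to RNA polymerase II, and Med16 encodes a subunit of its tail, the module that many factors contact. Pop7, also called Rpp20, encodes a protein subunit shared by ribonuclease P, which trims the leader from precursor transfer RNAs, and ribonuclease MRP, which takes part in ribosomal RNA maturation. Eif4b encodes a factor that stimulates the RNA helicase eIF4A, which unwinds the leaders of messenger RNAs for the scanning ribosome. The files pair the probes with RefSeq transcripts, which were matched to symbols through RefSeq's genes of rat assembly GRCr8: NM_001008324 is Eif4b (probe A_44_P1033541), NM_001106768 is Med16 (probe A_44_P291060) and NM_001105918 is Pop7 (probe A_43_P16530). No genome build is named for the array in the sources used here, so no coordinates are given. Which exon each probe matches was not determined here.

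The BZXD arrays were dim as a whole, which bears on every comparison with them. In the scanner's intensity units their 75th percentile of signal lay between 24.7 and 32.7, against 54.3 to 69.6 for Control and 91.1 to 118 for CIA. A signal well above background was seen for 49.4% ± 4.10 of probes in BZXD, against 73.8% ± 5.98 in Control and 75.8% ± 6.54 in CIA (SD, n = 4 each). Each slide holds a single group, and the effects of slide and group cannot be told apart. BZXD replicate 2 stood apart from its group, with a median correlation of 0.850 with the other BZXD arrays where each of those had 0.990, and its values are given apart. None of 38 marker genes for 9 cell types of the joint has a named probe, so the tissue could not be checked by its markers. In tissue RNA fewer cells of a type and less RNA per cell cannot be told apart. The labels say no more about the rats, so p-values measure only the spread between these samples.

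Levels are given as log2 signal minus the array's 75th percentile. On this scale Eif4b was highest in BZXD and lowest in CIA, Pop7 was near the same level on 11 of the 12 arrays, and Med16 was lower on 3 BZXD arrays than on any other array. Differences between groups came from 1 limma fit over the 12 arrays, with the Benjamini-Hochberg adjustment made over all 31247 tested probes and calls made at 0.05. Of the 3 genes, 0 were called between CIA and Control, where 0.0128% of all probes were. In each BZXD comparison 1 was called higher (Eif4b) and 1 lower (Med16), where 74.7% of all probes were called against CIA and 76.6% against Control. A call in a BZXD comparison therefore sets a probe apart from few others. Of the 38804 non-control probes on the array, 50 are catalogue probes. Shares, medians, ranks and the 75th percentile over all probes therefore describe mostly probes outside the catalogue, and are no comparison with other named genes.

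**Figure D1:**
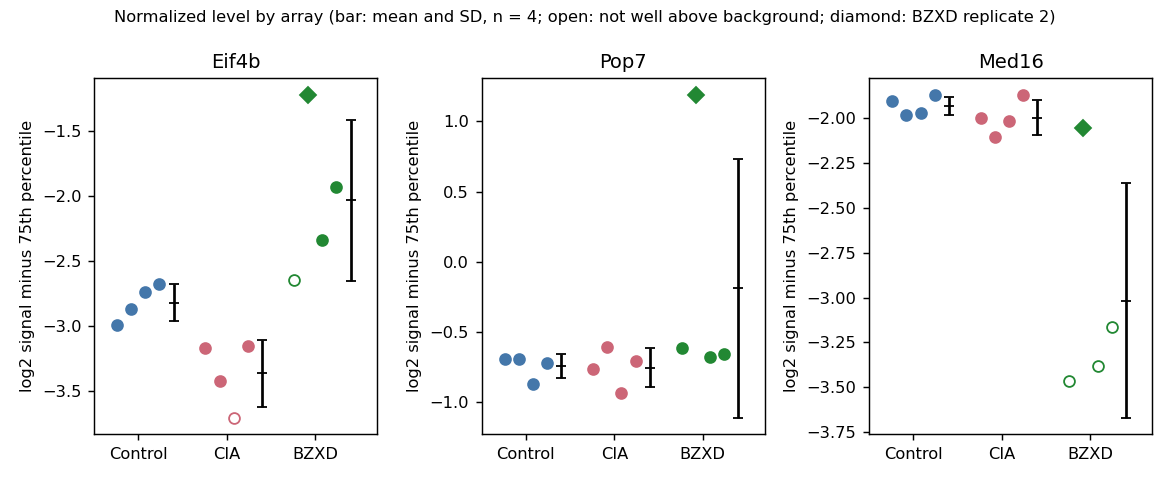
Level of each gene on every array, as log2 signal minus the array's 75th percentile, with 1 point per array and a bar for the mean and SD of 4 arrays. Open points mark arrays on which the probe was not well above background. The diamond marks BZXD replicate 2, which holds the highest Eif4b and Pop7 values, at -1.22 and 1.19, and lies with the Control and CIA arrays for Med16, at -2.06.

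Eif4b, the translation initiation factor, stood at -2.99, -2.87, -2.73 and -2.67 on Control replicates 1 to 4. On the CIA arrays it stood at -3.17, -3.42, -3.70 and -3.15. On the BZXD arrays it stood at -2.65, -1.22, -2.33 and -1.93. The groups did not overlap in any of the 3 comparisons: every CIA array lay below every Control array and every BZXD array above both, although BZXD replicate 1 was close to Control replicate 4. Groups did not overlap for 66.2% of all probes between BZXD and CIA and for 69.2% between BZXD and Control. Eif4b averaged -2.03 ± 0.62 over the BZXD arrays, -2.82 ± 0.14 over Control and -3.36 ± 0.26 over CIA (SD, n = 4 each).

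From CIA to BZXD, Eif4b rose by 1.33 ± 0.27 log2 units (SE, limma adjusted p = 0.000798, n = 4 per group), or 2.51-fold. From Control to BZXD it rose by 0.79 ± 0.27 (SE, n = 4 per group, limma adjusted p = 0.0194), or 1.72-fold. Higher calls made up 27.3% and 27.0% of all tested probes in these comparisons. The median difference of all tested probes was -0.60 against CIA and -0.69 against Control, which puts Eif4b 1.93 and 1.48 above the median. Against CIA, 78.6% of all tested probes had a lower difference than Eif4b. Of the kept probes, 8569 were well above background on no BZXD array, and the medians depend on the filter. With no filter on dim probes the medians were -0.19 and -0.31, and Eif4b lay 1.52 and 1.09 above them. Over probes well above background on all 12 arrays the medians were 0.132 and 0.135. Without BZXD replicate 2 the rises were 1.06 ± 0.19 (limma adjusted p = 0.000362) and 0.51 ± 0.19 (limma adjusted p = 0.0270), the latter over 1.5 times smaller. The rise over Control was not past the threshold when arrays were scaled on the 75th percentile of probes well above background on all arrays (0.51, limma adjusted p = 0.142).

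Between Control and CIA, Eif4b differed by -0.54 ± 0.27 (SE, n = 4 per group, limma adjusted p = 0.486) and was not called. An exact two-sided permutation test on the 8 arrays gave p = 0.0286, the smallest that 4 against 4 can give, and 21.0% of all probes had no overlap between these groups. The spread that the fit shares across groups is wider than that of Control and CIA: over all kept probes the median SD of BZXD was 0.550, or 0.303 without replicate 2, against 0.177 for Control and 0.201 for CIA. Fitted on the 8 arrays compared, without BZXD, the difference had an SE of 0.14 and a limma adjusted p of 0.0518. With arrays weighted by their spread it was -0.52 and passed (limma adjusted p = 0.0187), in a setting where 5670 of 31247 probes did. That setting gave BZXD replicate 2 a weight of 0.0497 and Control replicate 4 one of 4.92. With no scaling between arrays the sign turned (0.18, limma adjusted p = 0.649), beside a median of all probes of 0.65.

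The Eif4b probe is dim, and its spots show how near to background these levels lie. Before scaling, its mean spot signal was 8.15 to 10.2 on the Control arrays, 6.99 to 12.8 on the CIA arrays, and 3.95, 14.1, 6.27 and 7.11 on BZXD replicates 1 to 4. An array counts as well above background where more than 50% of the spots not marked as outliers are. Eif4b passed on all 4 Control arrays and on 3 of 4 in each other group, the exceptions being CIA replicate 3, with 1 of 9 spots, and BZXD replicate 1, with 2 of 10. The raw spot median exceeded the local background by 10.5 to 14 units in Control, 13 to 23.5 in CIA and 7 to 15 in BZXD. The SD over the spots of an array was 0.180 to 0.440 on the log2 scale outside BZXD and reached 0.716 on BZXD replicate 1.

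The rise of Eif4b is therefore one relative to the other probes of an array. Unscaled, its signal was higher on BZXD replicate 2 than on any CIA array. BZXD replicates 1 and 3 lay below all CIA arrays, and replicate 4 exceeded only CIA replicate 3. A fit with no scaling between arrays put Eif4b at -0.55 ± 0.34 between BZXD and CIA (limma adjusted p = 0.143), where the median of all probes was -2.47. Against Control it was then -0.36 ± 0.34 (limma adjusted p = 0.327) beside a median of -1.84. With CIA replicate 3 left out the scaled rise over CIA was 1.22 (limma adjusted p = 0.00325), and with BZXD replicate 1 left out it was 1.53 (limma adjusted p = 0.000241).

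**Figure D2:**
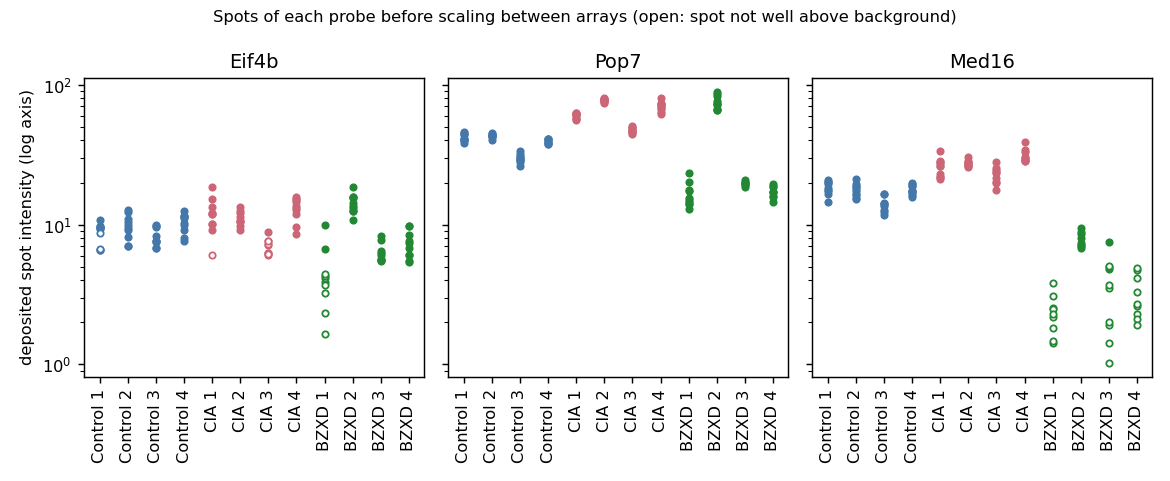
Deposited intensity of each spot not marked as an outlier, before scaling between arrays, on a log axis for the 12 arrays. Open points mark spots not well above background. All 36 Pop7 spots in BZXD are filled, whereas on BZXD replicates 1, 3 and 4 only 2 of 28 Med16 spots are.

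Ranks within an array need no scaling factor. Among all non-control probes Eif4b lay at percentile 34.5 to 37.3 on the Control arrays and 27.2 to 33.5 on the CIA arrays. On BZXD replicates 1 to 4 it lay at percentile 48.6, 63.8, 49.8 and 55.1, above the whole range of both other groups. With 49.4% of probes well above background in BZXD, ranks near the middle of those arrays are ranks among dim probes.

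Pop7, the ribonuclease P and MRP subunit, has the brightest of the 3 probes and was well above background on all 12 arrays. It stood at -0.70, -0.69, -0.87 and -0.72 on Control replicates 1 to 4 and at -0.76, -0.61, -0.94 and -0.70 on the CIA arrays. On the BZXD arrays it stood at -0.61, 1.19, -0.68 and -0.66. BZXD replicate 2 was far above all others, and the remaining 11 arrays spanned -0.94 to -0.61. Pop7 averaged -0.19 ± 0.92 over the BZXD arrays, -0.74 ± 0.08 over Control and -0.75 ± 0.14 over CIA (SD, n = 4 each). Without replicate 2 the BZXD mean was -0.65 ± 0.03 (SD, n = 3).

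Pop7 passed the threshold in none of the comparisons. Between CIA and Control it differed by -0.01 ± 0.36 (SE, n = 4 per group, limma adjusted p = 0.998), with a 95% interval of -0.79 to 0.77. Between BZXD and CIA it differed by 0.56 ± 0.36 (limma adjusted p = 0.170), with an interval of -0.22 to 1.34. Between BZXD and Control it differed by 0.55 ± 0.36 (limma adjusted p = 0.174), with an interval of -0.23 to 1.33. All BZXD arrays nevertheless lay above all Control arrays (exact two-sided permutation p = 0.0286, the smallest possible for 4 against 4), as groups did not overlap for 69.2% of all probes in that comparison.

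BZXD replicate 2 set the size of the Pop7 differences. Without it they were 0.10 ± 0.11 against CIA (limma adjusted p = 0.400) and 0.09 ± 0.11 against Control (limma adjusted p = 0.444). The medians of all tested probes in those fits were -0.55 and -0.66, so Pop7 stayed above the middle of the tested probes without a called change. Those medians include many dim probes. Over probes well above background on all 12 arrays, as Pop7 is, the medians were 0.132 against CIA and 0.135 against Control. Those fits include BZXD replicate 2, and Pop7 lay 0.43 and 0.42 above the medians. That filter was not run without replicate 2, so whether Pop7 then exceeds such probes was not tested. With arrays scaled on their medians, which moves the medians of all probes to -0.25 and -0.23, Pop7 was called at 0.91 against CIA (limma adjusted p = 0.0457) and 1.01 against Control (limma adjusted p = 0.0288). In that setting 22145 and 22458 of 31247 probes were called. Median scaling was not run without BZXD replicate 2. With no scaling between arrays the direction of Pop7 turned, to -1.31 against CIA (limma adjusted p = 0.0101) and -0.60 against Control (limma adjusted p = 0.200), beside medians of -2.47 and -1.84.

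The spots of Pop7 were tight, also on BZXD replicate 2. Its 10 spots there ran from 65.9 to 88.9 in deposited intensity, with an SD of 0.156 on the log2 scale. On BZXD replicates 1, 3 and 4 the mean signals were 16.2, 19.7 and 17.2. The mean signal was 29.8 to 43.1 on the Control arrays and 47.6 to 77.5 on the CIA arrays, so that the unscaled 74.8 of BZXD replicate 2 lay within the CIA range. As a rank, Pop7 lay at percentile 65.5 to 68.1 in Control, 65.3 to 69.1 in CIA and 68.6 to 69.8 on BZXD replicates 1, 3 and 4, but at 83.5 on replicate 2.

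Med16, the Mediator tail subunit, stood at -1.91, -1.98, -1.97 and -1.87 on Control replicates 1 to 4. On the CIA arrays it stood at -2.002, -2.11, -2.02 and -1.87. On the BZXD arrays it stood at -3.47, -2.06, -3.38 and -3.17. Control and CIA were level and overlapped, while BZXD replicates 1, 3 and 4 lay below all 8 of those arrays and replicate 2 lay within the CIA range. Med16 averaged -3.02 ± 0.65 over the BZXD arrays, -1.93 ± 0.05 over Control and -1.998 ± 0.098 over CIA (SD, n = 4 each).

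Med16 fell by 1.02 ± 0.26 on the log2 scale from CIA to BZXD (SE, n = 4 per group, limma adjusted p = 0.00403) and by 1.08 ± 0.26 from Control to BZXD (limma adjusted p = 0.00261). Lower calls made up 47.4% and 49.6% of all tested probes. With the medians of all tested probes at -0.60 and -0.69, Med16 lay -0.42 and -0.39 from them, and 39.9% and 40.9% of probes had a lower difference. With no filter on dim probes it lay -0.83 and -0.78 from medians of -0.19 and -0.31. Between CIA and Control it differed by -0.07 ± 0.26 (limma adjusted p = 0.977), with a 95% interval of -0.64 to 0.51. The exact two-sided permutation test gave p = 0.0571 for BZXD against CIA, where replicate 2 overlaps, and 0.0286 against Control.

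The BZXD level of Med16 lies near background, so the size of its fall is not fixed. The probe was well above background on all 8 Control and CIA arrays but on 1 of the 4 BZXD arrays, replicate 2. On BZXD replicates 1, 3 and 4 its mean signal was 2.24, 3.03 and 3.02, and the raw spot median exceeded the local background by 6, 4 and 3.5 units. The SD over spots there was 0.465 to 0.929 on the log2 scale, against at most 0.213 in Control and CIA. Its level on BZXD replicates 1, 3 and 4 was also set to the lowest signal of any probe well above background on the same array. The mean of these 3 arrays, with BZXD replicate 2 left out, would then lie 1.70-fold below CIA and 1.78-fold below Control. Those values hold only on the scale of deposited signals relative to the 75th percentile. They are no lower bound. On BZXD replicate 3 that lowest signal was 4.09, yet Med16 spots at 4.97 and 5.06 were not well above background. Without replicate 2 the fitted differences were -1.34 ± 0.11 (limma adjusted p = 7.42e-07) and -1.41 ± 0.11 (limma adjusted p = 5.04e-07), and both rest on signals not well above background in BZXD.

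The direction of Med16 turned with a change of background correction, but not when quantile normalization was used as well. With a normexp correction that adds an offset of 50, it was 0.46 ± 0.05 higher in BZXD than in CIA (limma adjusted p = 4.85e-06) and 0.23 ± 0.05 higher than in Control (limma adjusted p = 0.00130). The median of all probes then stood at 0.49 and 0.27, so that Med16 lay 0.03 and 0.04 below it. In that setting 26735 and 24796 of 31247 probes were called, 76.2% and 74.2% of them higher in BZXD. The raw spot median of Med16 exceeded the local background by 16.5 to 23 units in Control, 27 to 34.5 in CIA and 3.5 to 8 in BZXD. The offset is larger than all of these. With this correction and quantile normalization Med16 was -0.088 (limma adjusted p = 0.0755) and -0.085 (limma adjusted p = 0.0833). With quantile normalization alone the falls were -0.54 (limma adjusted p = 0.0547) and -0.49 (limma adjusted p = 0.0758), beside medians of -0.45 and -0.47. As a rank, Med16 lay at percentile 48.7 to 51.4 in Control and 50.3 to 52.4 in CIA, at 39.8, 38.2 and 40.8 on BZXD replicates 1, 3 and 4, and at 55.0 on replicate 2.

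**Figure D3:**
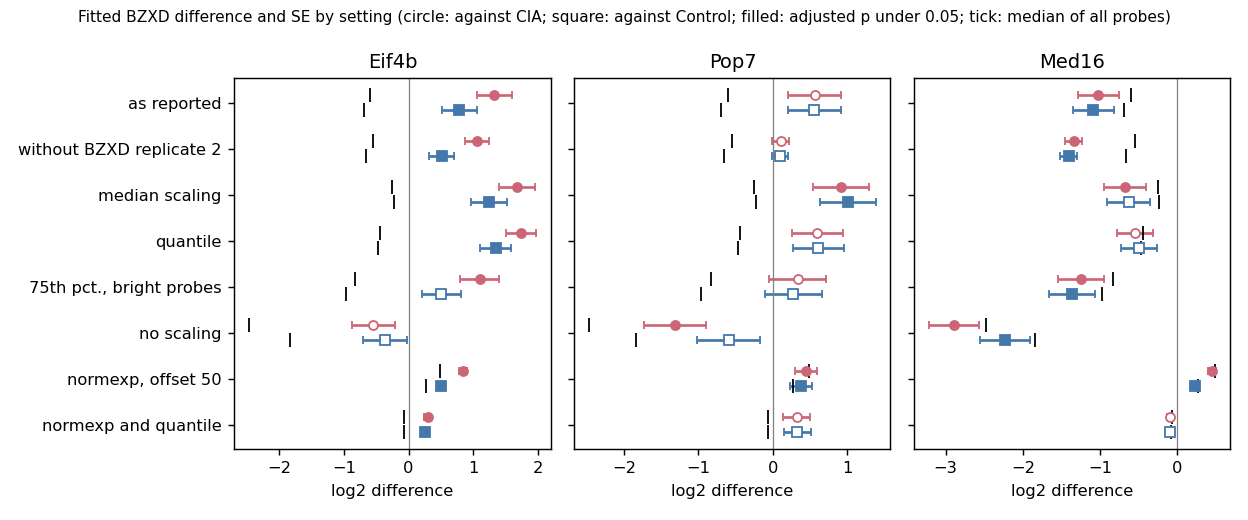
Fitted log2 difference of BZXD from CIA (circles) and from Control (squares) with its SE, under 8 settings. Filled symbols passed at a limma adjusted p under 0.05, and vertical ticks give the median of all probes. Eif4b lies to the right of that median in all 8, while Med16 moves from -1.02 against CIA as reported to 0.46 with the offset correction.

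The genes were also set against one another on the same array, where the scaling factor cancels. The size of such a difference depends on the probes, so only its shift between groups is read, over 9 tests. The tests are not independent, since each of the 3 differences follows from the other 2. An exact p of 0.0286 is the smallest that 4 against 4 can give. How often other pairs of probes shift likewise was not tested. Single probes did not overlap for 66.2% between BZXD and CIA, 69.2% between BZXD and Control and 21.0% between CIA and Control. Med16 was not well above background on BZXD replicates 1, 3 and 4, nor was Eif4b on BZXD replicate 1 and CIA replicate 3, so shifts that rest on these arrays are of measured values and their size is not fixed. Eif4b minus Med16 lay between 0.82 and 1.24 in BZXD, between -1.09 and -0.77 in Control and between -1.69 and -1.17 in CIA. Its shift from CIA to BZXD was 2.35 on the log2 scale (exact two-sided permutation p = 0.0286, Benjamini-Hochberg adjusted 0.0429, n = 4 per group), and from Control to BZXD it was 1.87 (same exact p). On BZXD replicate 2, the 1 BZXD array with both probes well above background, the difference was 0.84, so that this array went with its group here although its levels of both genes stood apart. From Control to CIA the shift was -0.48 (same exact p), with no overlap.

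**Figure D4:**
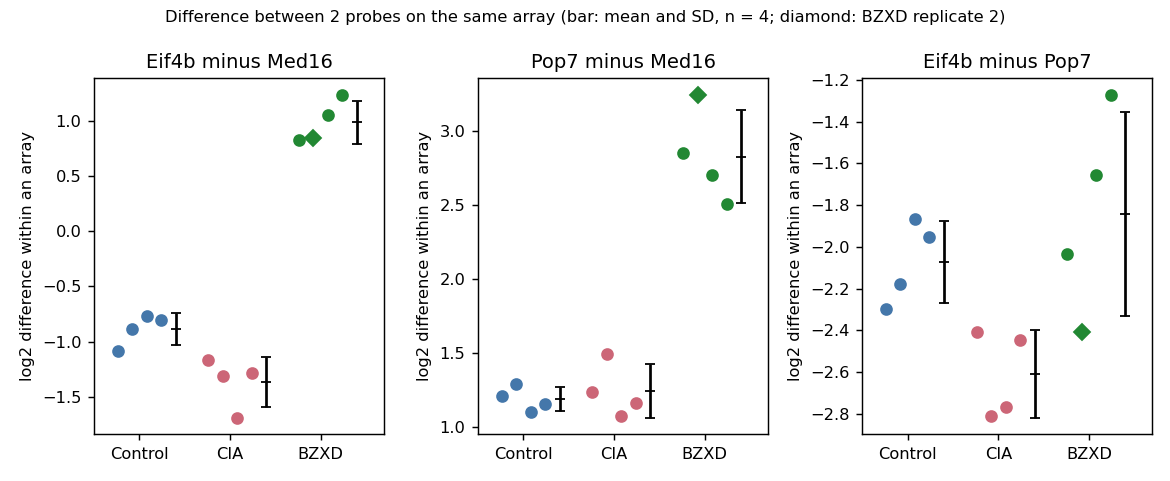
Log2 difference between 2 probes on the same array, with 1 point per array and a bar for the mean and SD of 4 arrays. The diamond marks BZXD replicate 2, which lies with the other BZXD arrays for Eif4b minus Med16, at 0.84, and is the highest for Pop7 minus Med16, at 3.25.

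Pop7 minus Med16 lay between 2.51 and 3.25 in BZXD, above its ranges of 1.103 to 1.29 in Control and 1.08 to 1.498 in CIA. It shifted by 1.58 from CIA to BZXD and by 1.64 from Control to BZXD (exact two-sided permutation p = 0.0286 each, adjusted 0.0429), and by 0.06 from Control to CIA (exact p = 0.657, adjusted 0.657). On BZXD replicates 1, 3 and 4 Med16 was not well above background, so the sizes of the shifts to BZXD are not fixed. With the offset correction these shifts to BZXD were much smaller: for Pop7 minus Med16 -0.01 from CIA and 0.14 from Control, and for Eif4b minus Med16 0.39 from CIA and 0.27 from Control. Eif4b minus Pop7 spread more, with -2.41 to -1.27 in BZXD, -2.30 to -1.87 in Control and -2.81 to -2.41 in CIA. It shifted by -0.53 from Control to CIA (exact p = 0.0286, adjusted 0.0429), by 0.77 from CIA to BZXD (exact p = 0.0571, adjusted 0.0735) and by 0.23 from Control to BZXD (exact p = 0.429, adjusted 0.482). BZXD replicate 2, at -2.41, was the BZXD array nearest to CIA in that difference. From Control to CIA the shift of Eif4b was below 0 against both other genes, and with the offset correction it was -0.27 against Pop7 and -0.12 against Med16.

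Other genes of these pathways are mostly unnamed on the array here. Of 44 genes of translation initiation 1 has a named probe, as do 1 of 13 of the ribonuclease P and MRP list and 1 of 33 Mediator genes, and these are Eif4b, Pop7 and Med16 themselves. Their patterns were therefore set beside the other 16 named catalogue probes that passed the filter, by the root mean square difference of log2 levels over the 12 arrays, each probe centred on its own mean. Nearest to Eif4b were Pdcd10, a regulator of vascular integrity, at 0.36, and Pop7 at 0.43. Nearest to Pop7 were Pdcd10 at 0.36 and Eif4b at 0.43. Nearest to Med16 were Dlg4, a synaptic scaffold, at 0.23, and Ndfip1, an adaptor of ubiquitin ligases, at 0.27.

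These neighbours were picked over all 12 arrays, so likeness on BZXD replicate 2 is part of the choice and no separate result. Pdcd10 stood at -1.54 on that array against -3.16 to -1.96 on the other BZXD arrays, and Dlg4 at -1.25 against -2.47 to -2.01. Without BZXD replicate 2, the nearest to Eif4b were Pdcd10 at 0.35 and Ppp2r2b, a phosphatase regulatory subunit, at 0.36. Those nearest to Pop7 were then Ppp2r2b at 0.21 and Pdcd10 at 0.32, and those nearest to Med16 were Trim2, a ubiquitin ligase, at 0.17 and Dlg4 at 0.24. The distance between Eif4b and Pop7 was then 0.44, close to its value over 12 arrays, while Ppp2r2b came nearer to both.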

How the data were processed

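RNA of 12 rats was measured on 1-colour arrays. Per the submitters' processing notes, the scans were read by Agilent Feature Extraction 11.0.1.1, and per the file headers the deposited intensity is its background-subtracted signal. The authors' value table, in log2, covers 38620 probes and none of the 3 genes. Here the spots of a probe were averaged in log2 after leaving out marked outliers, and the 75th percentile of the 38804 non-control probes was subtracted within each array. Probes well above background on at least 4 arrays were kept (31288). One limma fit (3.58.1, R 4.3.3) over 12 arrays gave all comparisons, and it was tested on simulated data. The exact permutation tests used the 8 arrays compared. The precision is limited by 4 arrays per group. No pair of arrays held the same values. Named genes were the 3 members, any named member of their pathway lists, and the 2 probes most like each. The neighbours without BZXD replicate 2 were named after their values were seen. Members, lists and tests were chosen with earlier results of these data known. Alternatives covered background correction, scaling, filters, spots, array sets, weights and the replicate block. Probe sequences were not used here.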

Additional observations from a re-analysis of the deposited data

Results flagged for a closer look

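Dixon's ratio, the gap of an extreme array over the range of its group, was computed for 27 sets of 4 arrays. It exceeded its critical value in 4 of them, and about 1 set in 20 does so by chance. The 27 sets are levels, ranks and differences of the same 3 genes on the same arrays. They are not independent, so 4 of 27 cannot be read against that rate. BZXD replicate 2 accounts for 3 of the 4, and its Pop7 level and Pop7 rank come from the same signal. Its Pop7 level was 1.19 against -0.68 to -0.61 on the other BZXD arrays (ratio 0.964). Its Pop7 rank was at percentile 83.5 against 68.6 to 69.8 (ratio 0.916). Its Med16 rank was at percentile 55.0 against 38.2 to 40.8 (ratio 0.845). On the same array 3.31% of spots were marked as outliers, against 0.828% to 2.16% on the other BZXD arrays. None of its 10 Pop7 spots was marked, and with marked spots kept on all arrays Pop7 differed by 0.41 between BZXD and CIA. The other is Control replicate 3, whose Pop7 level was -0.87 against -0.72 to -0.69 (ratio 0.839).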

How the results depend on the processing

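In 215 of 252 comparisons of a gene's difference with an alternative, direction and side of the threshold stayed as reported, and the cause of the other changes was not tested. In many of the 252 the difference itself could not change, as at the threshold of 0.01 or without an array of the group not compared. The share that stayed is therefore no measure of how robust the differences are. Adjusted p-values are limma's. The 4 probes called between CIA and Control became 14700 with normexp (offset 50), 154 with normexp and quantile, 15 with quantile, 18 with median scaling, 31 with no filter, 2 with outlier-marked spots kept, 2933 in a fit of 8 arrays, 5670 with array weights, 500 in the deposited table and 9096 with no scaling. They became 0 with the 75th percentile of bright probes, with the filter on all 12 arrays and at an adjusted p under 0.01, and 0 to 733 with an array left out, the highest without BZXD replicate 2. The filter on all 12 arrays left 9091 calls between BZXD and CIA and 9134 between BZXD and Control, and gave no value for Eif4b or Med16.

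Between CIA and Control, Eif4b was -0.35 with normexp (adjusted p = 0.00216), -0.52 with array weights, -0.54 by the exact test (exact p = 0.0286) and 0.18 with no scaling. Pop7 was 0.010 with normexp and quantile, 0.015 with quantile, 0.10 with median scaling, 0.0077 with spot medians and 0.72 with no scaling. With an array left out Pop7 ran from -0.059 to 0.051, turning sign without Control replicate 1, Control replicate 2 or CIA replicate 3. Med16 was -0.23 with normexp (adjusted p = 0.00417), 0.0029 with normexp and quantile, 0.049 with quantile, 0.046 with median scaling and 0.66 with no scaling.

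Between BZXD and CIA, Eif4b was -0.55 with no scaling. Pop7 was 0.45 with normexp (adjusted p = 0.0138), 0.91 with median scaling and -1.31 with no scaling. Med16 was 0.46 with normexp, -0.088 with normexp and quantile (adjusted p = 0.0755), -0.54 with quantile and -1.02 by the exact test (exact p = 0.0571). Between BZXD and Control, Eif4b was 0.51 with the 75th percentile of bright probes, 0.79 at the threshold of 0.01 (adjusted p = 0.0194) and -0.36 with no scaling. Pop7 was 0.37 with normexp (adjusted p = 0.0355), 1.01 with median scaling, 0.55 by the exact test (exact p = 0.0286) and -0.60 with no scaling. Med16 was 0.23 with normexp, -0.085 with normexp and quantile (adjusted p = 0.0833), -0.49 with quantile and -0.63 with median scaling (adjusted p = 0.0596). Pop7 minus Med16 shifted by -0.010 from CIA to BZXD with normexp, and by -0.029 (without CIA replicate 2) to 0.11 (without CIA replicate 3) from Control to CIA.

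Higher calls were 36.6% of calls against CIA (76.2% with normexp, 12.97% with no scaling, 53.4% with the filter on all 12 arrays) and 35.3% against Control (74.2%, 19.0% and 53.1%, and 45.6% with median scaling). Same-numbered arrays did not deviate together in every pair (r from -0.128 to 0.573, over 0.1 in 8 of 12 pairs). For 1 of 12 arrays the 2 best correlations in other groups were both with its own number. With the replicate block, calls between CIA and Control were 0 over 12 arrays and 1809 over 8, and Eif4b between BZXD and Control was 0.79 over 8 arrays (adjusted p = 0.0541). The slide as a block was not run, since each slide holds 1 group.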
